A study of Mus musculus with 12 samples.

Results

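The genes described here are 10 immediate early genes that encode transcription factors: Fos, Fosb, Fosl1, Fosl2, Jun, Junb and Jund of the AP-1 family, Egr1 and Egr2, and Atf3. Their probes were found by looking up the accession of each array probe in a RefSeq table, which gave 11 probes of the 39429 on the array, with 2 for Fosl2 and 1 for each other gene. All 11 probes passed the filter on dim signal, so that all 10 genes were among the 24571 genes tested. The RNA came from C2C12, a myoblast line from the mouse that proliferates in serum and fuses into myotubes when serum is withdrawn, and was measured on 12 Agilent arrays with 1 dye. In every group the cells were unsorted C2C12 cells grown with serum and collected 72 h after transfection. The transfected agents were siRNA, pcDNA3.1-MEG3, the plasmid pcDNA3.1 and a negative control, with 3 arrays each. The titles name siRNA as knockdown of MEG3, a long non-coding RNA, and pcDNA3.1-MEG3 as MEG3 overexpression. They name the pcDNA3.1 samples pat1, a term that the labels do not explain, and the negative control samples control. The labels do not give the siRNA sequence, what the negative control is, or whether separate cultures stand behind the replicates, so the p-values cover only the scatter of these samples, part of which may be technical.

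Immediate early genes are transcribed within minutes of a growth factor, stress or calcium signal, without need for new protein. Fos and Jun proteins pair through leucine zippers to form AP-1, which binds DNA at the AP-1 site, whereas Egr proteins bind GC-rich sites through zinc fingers and Atf3 is a zipper protein induced by many kinds of stress. Fos and the Egr genes are classical targets of serum response factor and its cofactors, and of CREB, downstream of Ras and the ERK kinases. In muscle cells AP-1 and Jun are known mainly from proliferating myoblasts, where they can oppose the action of MyoD.

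Levels below are log2 of the processed signal minus the 75th percentile of the same array, so that 0 is the signal of the probe at that percentile. They compare groups for 1 probe and do not rank genes against each other. In the siRNA, pcDNA3.1-MEG3 and pcDNA3.1 groups replicates 1 and 3 shared a slide position but came from different scans. They differed by an SD of only 0.095 to 0.245 times the spot-to-spot noise, and were averaged to 1 sample. Replicates 1 and 3 of the negative control differed by 0.853 times that noise and were averaged too, whereas its replicate 2 stood apart at 2.50 to 2.76 times. Each group thus held n = 2 samples. Replicates 1 and 2 of the other groups also differed by less than the noise (0.909 to 0.969 times), and counting each of those groups as 1 sample left 1 of the 10 genes called in siRNA against negative control, where 5.22% of all genes were, 0 in pcDNA3.1-MEG3 against pcDNA3.1 (0.248%) and 1 in pcDNA3.1 against negative control (11.9%). A gene was called when limma's Benjamini-Hochberg adjusted p over all genes was under 0.05. Of the probes, 61.2% to 68.0% were well above background on the siRNA arrays and 69.1% to 75.8% on the others, and the 75th percentile signal was 2266 on negative control replicate 2 against at most 1601 elsewhere. The siRNA arrays and the negative control arrays each lay on a slide of their own, so slide and group cannot be told apart there, whereas both plasmid groups shared a slide. The brightest Meg3 probe was detected, that is well above background, on 0 of 3 arrays labelled siRNA, 0 of 3 labelled pcDNA3.1-MEG3, 3 of 3 labelled pcDNA3.1 and 1 of 3 labelled negative control. That order goes against the labels of the plasmid groups, and every direction below that involves them holds for the arrays as labelled.

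Promoter windows from the RefSeq table (GRCm38.p6) were searched for 8 of the 10 genes, and Fosl1 and Egr1 are named only. Of the genes searched, Fos, Egr2 and Atf3 passed the test between siRNA and negative control. Their windows are shown over the 250 bases before the start site, with motif matches in capitals. Both strands were searched for the AP-1 site (TGACTCA), the CRE (TGACGTCA), its core (TGACGT, which every CRE holds), the EGR site (GCGGGGGCG or GCGTGGGCG), the TATA box (TATAAA), the CArG box bound by serum response factor and the MEF2 box, the last added after the windows had been seen. The Fos window is chr12:85473640-85473889 on the plus strand, the Egr2 window is chr10:67537619-67537868 on the plus strand, and the Atf3 window is chr1:191183334-191183583 on the minus strand.
Fos: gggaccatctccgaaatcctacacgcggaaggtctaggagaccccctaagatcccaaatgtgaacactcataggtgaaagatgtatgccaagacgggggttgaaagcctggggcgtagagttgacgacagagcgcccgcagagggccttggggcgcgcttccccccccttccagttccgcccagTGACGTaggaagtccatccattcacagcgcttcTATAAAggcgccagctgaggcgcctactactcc
Egr2: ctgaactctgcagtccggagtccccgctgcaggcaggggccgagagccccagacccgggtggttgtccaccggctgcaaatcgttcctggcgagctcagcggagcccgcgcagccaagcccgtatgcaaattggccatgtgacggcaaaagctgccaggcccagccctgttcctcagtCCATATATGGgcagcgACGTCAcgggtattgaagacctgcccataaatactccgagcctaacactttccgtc
Atf3: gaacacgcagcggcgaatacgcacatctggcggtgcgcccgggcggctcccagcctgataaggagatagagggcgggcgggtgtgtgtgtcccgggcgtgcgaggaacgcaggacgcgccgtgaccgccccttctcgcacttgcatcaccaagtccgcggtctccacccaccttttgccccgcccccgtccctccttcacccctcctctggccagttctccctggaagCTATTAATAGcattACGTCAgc

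All of the windows shown hold a CRE core, which begins 66 bases before the start site in Fos, 56 in Egr2 and 8 in Atf3. Of 32851 windows of this length in the table, 6.47% hold one, 1.55% a full CRE, 4.46% an AP-1 site and 3.06% an EGR site. The Fos window also holds a TATA box 33 bases before the start, a motif found in 12.4% of all windows. Of the 5 windows listed for start sites of Egr2, 3 hold the CRE core and 4 a CArG box. The 3 windows with the core overlap and hold the same core and the same CArG box, and the other CArG box is a different site. The window shown was chosen with these matches known. It holds a CArG box 72 bases before the start, found in 1.47% of windows. None of the other 7 genes searched has one within its 250 bases. Bases further upstream were not searched, and Egr1 and Fosl1 were not among the genes searched. The MEF2 box 22 bases before the Atf3 start is found in 0.508% of windows, and Jun has one 33 bases before its start. Fosl2 and Fosb each have an EGR site, and Junb and Jund have none of these motifs. A match describes letters, and binding was not measured.

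On the siRNA arrays 4 of the 10 genes rose against the negative control and 0 fell: Fos 3.46-fold, Atf3 2.92-fold, Egr2 2.40-fold and Egr1 1.85-fold. Of all genes tested, 12.4% were called in either direction and 7.75% as higher. The median log2 difference of the 10 genes was 0.58, against 0.06 for all genes. The arrays of the groups did not overlap for 6 of the 10, against 44.6% of all genes.

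Fos, which encodes the founding partner of Jun in AP-1, had levels of -1.88, -1.94 and -1.92 on the siRNA arrays, -3.30, -3.34 and -3.32 on the pcDNA3.1-MEG3 arrays, -3.26, -3.29 and -3.29 on the pcDNA3.1 arrays and -3.89, -3.55 and -3.83 on the negative control arrays. The siRNA arrays stood above all others, the plasmid groups lay together, and the negative control was lowest. The difference of siRNA from negative control was 1.79 (SE 0.15, n = 2 each, limma adjusted p = 0.00244). From pcDNA3.1-MEG3 it was 1.40 (SE 0.15, limma adjusted p = 0.00387), and from pcDNA3.1 it was 1.36 (SE 0.15, limma adjusted p = 0.00522). The Fos call was lost when the arrays of these 2 groups were fitted alone (1.79, limma adjusted p = 0.0872), with the spread then estimated from 4 samples and 0.644% of all genes called. The difference of pcDNA3.1-MEG3 from pcDNA3.1 was not called, at -0.04 with a 95% interval of -0.41 to 0.33. That interval uses the spread shared by all groups, and the arrays of the plasmid groups themselves did not overlap. The step from negative control to pcDNA3.1 was 0.43 (limma adjusted p = 0.103), and without negative control replicate 2 it was 0.58 (limma adjusted p = 0.0113). The Fos probe is printed 10 times on each array, which shows the scatter of single spots: the SD over the spots was 0.073 to 0.147. The lowest siRNA spot was at -2.06 and the highest spot of any other array at -3.04, so that no siRNA spot overlapped with a spot of another group.

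Egr2, a zinc finger factor known from Schwann cell myelination and hindbrain patterning, followed the same order at its upper end. Its levels were -0.11, -0.21 and -0.17 on the siRNA arrays, -1.63, -1.60 and -1.63 on the pcDNA3.1-MEG3 arrays, -1.45, -1.45 and -1.42 on the pcDNA3.1 arrays and -1.29, -1.57 and -1.32 on the negative control arrays. The siRNA arrays were apart from the rest, and the other groups lay within a narrow band in which pcDNA3.1 and negative control overlapped. The rise over the negative control was 1.26 (SE 0.14, n = 2 each, limma adjusted p = 0.00640). That call was lost with the arrays of these 2 groups alone (limma adjusted p = 0.142) and with each group but the negative control as 1 sample (limma adjusted p = 0.180). The siRNA difference was 1.44 from pcDNA3.1-MEG3 (limma adjusted p = 0.00307) and 1.27 from pcDNA3.1 (limma adjusted p = 0.00579).

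Egr1, which links growth factor signals to target genes in many cell types, also had its highest level on the siRNA arrays but was lowest on the plasmid arrays. It stood at 3.29, 3.15 and 3.25 on the siRNA arrays, 1.52, 1.57 and 1.54 on the pcDNA3.1-MEG3 arrays, 1.78, 1.73 and 1.79 on the pcDNA3.1 arrays and 2.49, 2.14 and 2.51 on the negative control arrays. No 2 groups overlapped, and the negative control lay between siRNA and the plasmids. The siRNA difference was 0.89 from the negative control (SE 0.16, limma adjusted p = 0.0256), 1.66 from pcDNA3.1-MEG3 (limma adjusted p = 0.00301) and 1.45 from pcDNA3.1 (limma adjusted p = 0.00569). Against the negative control Egr1 fell by 0.77 on the pcDNA3.1-MEG3 arrays (SE 0.16, limma adjusted p = 0.0353), and pcDNA3.1 differed by -0.56 (limma adjusted p = 0.0664). That last difference was called without negative control replicate 2 (-0.74, limma adjusted p = 0.0114) and without its replicates 1 and 3 (-0.38, limma adjusted p = 0.0384). The siRNA call of Egr1 against the negative control was lost with arrays centred on their median (0.70, limma adjusted p = 0.0502), with the arrays of these 2 groups alone (0.89, limma adjusted p = 0.222), with each group but the negative control as 1 sample (0.91, limma adjusted p = 0.463) and without siRNA replicates 1 and 3 (0.83, limma adjusted p = 0.0810). It was also lost without either sample of pcDNA3.1 (0.89, limma adjusted p = 0.0658) or of pcDNA3.1-MEG3 (0.89, limma adjusted p = 0.0796), through the shared estimate of spread.

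Atf3, a repressor and activator of stress genes, was lowest on the negative control arrays and higher in every other group. Its levels were -0.65, -0.42 and -0.66 on the siRNA arrays, 0.30, 0.28 and 0.32 on the pcDNA3.1-MEG3 arrays, -0.40, -0.49 and -0.42 on the pcDNA3.1 arrays and -2.31, -1.87 and -2.28 on the negative control arrays. The siRNA and pcDNA3.1 arrays overlapped, the pcDNA3.1-MEG3 arrays lay above them, and the negative control arrays lay below all others. Against the negative control Atf3 rose by 1.55 on the siRNA arrays (SE 0.19, limma adjusted p = 0.00771), by 2.38 on the pcDNA3.1-MEG3 arrays (SE 0.19, limma adjusted p = 0.00198), the largest difference fitted for the 10 genes, and by 1.63 on the pcDNA3.1 arrays (SE 0.19, limma adjusted p = 0.00617). The siRNA call was lost with the arrays of these 2 groups alone (1.55, limma adjusted p = 0.134) and with each group but the negative control as 1 sample (1.51, limma adjusted p = 0.0761), and the pcDNA3.1 call without pcDNA3.1 replicates 1 and 3 (1.60, limma adjusted p = 0.0617). The siRNA and pcDNA3.1 groups differed by -0.09 with a 95% interval of -0.55 to 0.37. On the siRNA arrays Atf3 fell by 0.83 against pcDNA3.1-MEG3 (limma adjusted p = 0.0343). These differences share the negative control samples.

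The other Fos family genes, each by its brightest probe, differed less than Fos between siRNA and negative control. Between each plasmid group and negative control, Fosl1 and Fosb differed more than Fos. Fosl1, which encodes Fra-1, had levels of -1.63, -1.52 and -1.57 on the siRNA arrays, -0.91, -0.80 and -0.93 on the pcDNA3.1-MEG3 arrays, -1.31, -1.29 and -1.29 on the pcDNA3.1 arrays and -2.53, -1.89 and -2.75 on the negative control arrays. The groups did not overlap, with pcDNA3.1-MEG3 highest and the negative control lowest and most scattered. Against the negative control Fosl1 rose by 1.40 on the pcDNA3.1-MEG3 arrays (SE 0.25, limma adjusted p = 0.0230) and by 0.97 on the pcDNA3.1 arrays (SE 0.25, limma adjusted p = 0.0496), and on the siRNA arrays it differed by 0.70 (SE 0.25, limma adjusted p = 0.130). The pcDNA3.1 call sat at the threshold. Without 1 sample of pcDNA3.1 its adjusted p was 0.178 or 0.204, and without 1 sample of pcDNA3.1-MEG3 it was 0.106. Without negative control replicate 2 the siRNA difference was 1.08 (limma adjusted p = 0.00602).

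Fosb, a Fos relative known from neurons and muscle, stood at -1.98, -2.88 and -2.01 on the siRNA arrays, -2.13, -2.08 and -2.10 on the pcDNA3.1-MEG3 arrays, -1.74, -1.88 and -1.72 on the pcDNA3.1 arrays and -2.66, -2.84 and -2.51 on the negative control arrays. The pcDNA3.1 arrays were highest, and siRNA replicate 2 lay just below the negative control values while the other siRNA arrays lay near the plasmid groups. The pcDNA3.1 group differed from the negative control by 0.91 (SE 0.30, limma adjusted p = 0.0848). When either siRNA sample was left out of the fit, that difference was called at the same size (limma adjusted p = 0.0131). The siRNA difference was 0.28 (SE 0.30, limma adjusted p = 0.602), and without siRNA replicates 1 and 3 it was -0.16.

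Fosl2, which encodes Fra-2, was nearly level by its brighter probe, A_55_P1995195, at 4.15, 4.05 and 4.11 on the siRNA arrays, 3.62, 3.67 and 3.66 on the pcDNA3.1-MEG3 arrays, 4.01, 4.01 and 3.99 on the pcDNA3.1 arrays and 3.94, 3.36 and 3.85 on the negative control arrays. Negative control replicate 2 was lowest, and the siRNA arrays lay just above the pcDNA3.1 arrays. The siRNA difference from the negative control was 0.46, with a 95% interval of -0.03 to 0.95 (SE 0.20, limma adjusted p = 0.194). Without negative control replicates 1 and 3 it was 0.73 (limma adjusted p = 0.00786). The dimmer probe, A_51_P507242, ran the other way at -1.90 (SE 0.79, limma adjusted p = 0.182 over probes), and it was detected on 1 of 3 siRNA arrays.

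Among the Jun genes, 0 of 3 were called by limma in any of the 6 comparisons of groups over the 8 samples. All 3 were called under some of the alternatives. With 12 arrays as 12 samples, Junb was called in siRNA against pcDNA3.1-MEG3, siRNA against pcDNA3.1 and pcDNA3.1-MEG3 against negative control (limma adjusted p = 0.00631, 0.0460 and 0.0142). Jund was called there in pcDNA3.1 and pcDNA3.1-MEG3 against negative control (limma adjusted p = 0.0419 and 0.0427). That counting takes replicates 1 and 3 as separate samples, although in 3 groups they differed by far less than the spot noise. Under it 49.3% of all genes were called in pcDNA3.1 against negative control, and the share was not counted for the other pairs named. Jun, the main partner of Fos, had levels of -2.05, -2.01 and -2.08 on the siRNA arrays, -1.26, -1.02 and -1.22 on the pcDNA3.1-MEG3 arrays, -2.07, -2.11 and -2.08 on the pcDNA3.1 arrays and -2.22, -1.23 and -2.06 on the negative control arrays. The pcDNA3.1-MEG3 arrays lay above the siRNA and pcDNA3.1 arrays, and negative control replicate 2 lay among them. The difference of pcDNA3.1-MEG3 from pcDNA3.1 was 0.96, with a 95% interval of 0.23 to 1.70 (SE 0.30, limma adjusted p = 0.389), and it was called with the arrays of these 2 groups alone (limma adjusted p = 0.0347). The siRNA difference from the negative control was -0.35 (limma adjusted p = 0.506). Without negative control replicate 2 it was 0.10 (limma adjusted p = 0.590), and without its replicates 1 and 3 it was -0.81 (limma adjusted p = 0.0157), with pcDNA3.1 against negative control then at -0.86 (limma adjusted p = 0.0116).

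Junb, an AP-1 subunit with weaker activating power than Jun, was close to background. Its probe was detected on 0 of 3 siRNA arrays, 3 of 3 pcDNA3.1-MEG3 arrays, 2 of 3 pcDNA3.1 arrays and 1 of 3 negative control arrays. Levels were -4.93, -4.89 and -4.91 on the pcDNA3.1-MEG3 arrays, against -5.31, -5.90 and -5.01 on the pcDNA3.1 arrays and -6.58, -5.42 and -6.28 on the negative control arrays. The siRNA arrays stood at -6.80, -6.00 and -6.12, which gives only a bound. For the bound, the floor of each array was its dimmest detected probe, or the Junb signal where that was higher. In this scaling the siRNA mean lay at least 2.10-fold below pcDNA3.1-MEG3 (limma adjusted p = 0.0778) and 1.36-fold below pcDNA3.1 (limma adjusted p = 0.272). Neither difference was called over the 8 samples, so these bounds describe the measured means only. Under the 2 alternatives run, the log2 differences were -1.40 and -0.87 from pcDNA3.1-MEG3 and -0.90 and -0.18 from pcDNA3.1. The siRNA and negative control arrays overlapped. Jund, the AP-1 subunit that many resting cells keep at a steady level, stood at 4.71, 4.57 and 4.65 on the siRNA arrays, 4.76, 4.82 and 4.68 on the pcDNA3.1-MEG3 arrays, 4.79, 4.73 and 4.74 on the pcDNA3.1 arrays and 4.62, 4.47 and 4.53 on the negative control arrays, and averaged 4.62 ± 0.08 on the siRNA arrays, 4.77 ± 0.07 on the pcDNA3.1-MEG3 arrays, 4.75 ± 0.02 on the pcDNA3.1 arrays and 4.52 ± 0.08 on the negative control arrays (SD, n = 2 each). Its group means spanned 0.25, the least of the 10 genes.

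With pcDNA3.1-MEG3 set against pcDNA3.1, 0 of the 10 genes were called by limma, and 2 (Jun and Atf3) had an unadjusted p under 0.05. Over all genes 0.00814% were called, and 10.2% had an unadjusted p under 0.05. Atf3 differed by 0.74, with a 95% interval of 0.28 to 1.20 (SE 0.19, limma adjusted p = 0.291), and Fosl1 by 0.44 and Fosl2 by -0.35 (limma adjusted p = 0.585 and 0.584). The arrays of the groups did not overlap for 9 of the 10 genes, against 64.3% of all genes. Both groups shared a slide and its scans. Without either negative control sample, which narrows the shared estimate of spread and leaves the differences as they are, Jun, Atf3, Fosl1 and Fosl2 were called (limma adjusted p = 0.0173, 0.0303, 0.0446 and 0.0491), the first 3 as higher and Fosl2 as lower, where 9.79% of all genes were called.

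With pcDNA3.1 set against negative control, 2 of the 10 genes rose, Atf3 by 1.63 and Fosl1 by 0.97, and 0 fell. Of all genes tested 17.9% were called in either direction and 11.3% as higher. The median of the 10 genes was 0.39 against 0.22 for all genes, and the arrays did not overlap for 7 of the 10, against 59.8% of all genes. Centring each array on its median in place of the 75th percentile moved the median of all genes to -0.23 in this comparison and to -0.13 in siRNA against negative control. Atf3 then differed by 1.19 from the negative control and was still called, while Fosl1 at 0.52 was not (limma adjusted p = 0.215) and Egr1 at -1.01 was (limma adjusted p = 0.0121). Without negative control replicate 2, 4 genes were called, 3 higher and 1 lower, where 30.3% of all genes were.

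The remaining pairs of groups place the genes in order. In siRNA against pcDNA3.1, 3 of the 10 rose (Fos, Egr1 and Egr2) and 0 fell, where 11.5% of all genes were called. In siRNA against pcDNA3.1-MEG3 the same 3 rose and Atf3 fell, where 17.2% of all genes were called. In pcDNA3.1-MEG3 against negative control, Atf3 and Fosl1 rose and Egr1 fell, where 14.1% were called. These comparisons share samples with those above. Of the 10 genes, 4 had their highest mean on the siRNA arrays (Fos, Fosl2, Egr1 and Egr2), 5 on the pcDNA3.1-MEG3 arrays (Fosl1, Jun, Junb, Jund and Atf3) and Fosb on the pcDNA3.1 arrays. With 12 arrays counted as 12 samples, Jun was called as lower on siRNA than on pcDNA3.1-MEG3 arrays (-0.88, limma adjusted p = 0.00725). More of the 10 genes were called in each of these pairs, but that counting takes replicates 1 and 3 as separate samples. The share of all genes called was not counted for these pairs under it. In siRNA against negative control that share was 40.1%, against 12.4% over the 8 samples.

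Of 26 upstream genes (Ras, Raf, MEK, ERK and RSK kinases, serum response factor with its cofactors, and CREB), 3 rose on the siRNA arrays against the negative control and 0 fell. That is 11.5% of the list, near the 12.4% of all genes. Srf, which encodes serum response factor, rose by 1.30 (SE 0.15, limma adjusted p = 0.00645) and the kinase gene Rps6ka3 by 0.89 (SE 0.14, limma adjusted p = 0.0156). The median of the list was 0.15. In pcDNA3.1 against negative control 2 rose, 7.69% of the list against 17.9% of all genes: the MEK gene Map2k1 by 0.81 and Rps6ka3 by 0.72 (limma adjusted p = 0.0399 and 0.0220).

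Of 38 other immediate early genes 36 were tested, and on the siRNA arrays 8 rose and 1 fell against the negative control, with a median of 0.40. These calls are 25.0% of those tested, against 12.4% of all genes. Ccn2, which encodes a secreted matrix protein, rose by 2.23 (SE 0.14, limma adjusted p = 0.00101). Klf2, a zinc finger factor, rose by 1.58 (SE 0.15, limma adjusted p = 0.00380), and Npas4, an activity-induced factor of neurons, by 1.19 (SE 0.24, limma adjusted p = 0.0339). Zfp36, whose protein speeds the decay of AU-rich messages, fell by 0.69 (SE 0.17, limma adjusted p = 0.0490). In pcDNA3.1 against negative control 5 rose and 5 fell (27.8%, against 17.9% of all genes), whereas with arrays centred on their median 0 rose and 10 fell. Npas4, Arc and Klf2 rose there, before that centring, by 1.12, 1.03 and 0.65, while Ccn2 fell by 2.04, Hbegf by 1.28 and Zfp36 by 1.26. Ccn2 thus passed the test with opposite signs in comparisons that share the negative control samples.

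Of 12 genes for further zipper partners and the Egr corepressors Nab1 and Nab2, 10 were tested in siRNA against negative control. Of these 0 were called by limma, where 12.4% of all genes were. Batf2 rose by 1.55 (SE 0.13, limma adjusted p = 0.00211) in pcDNA3.1 against negative control, where 11 were tested. That is 9.09% of those tested, against 17.9% of all genes. Of 12 genes for ERK phosphatases and feedback inhibitors, Dusp6 rose by 1.18 and Dusp2 by 0.59 on the siRNA arrays (limma adjusted p = 0.0363 and 0.0493) and 0 fell. These calls are 16.7% of the list, against 12.4% of all genes. On the pcDNA3.1 arrays Dusp4 rose by 1.00, Dusp10 fell by 0.70 and Spry4, not well above background there on any array, was at least 11.7-fold lower than on the negative control arrays (limma adjusted p = 0.00824, 0.0491 and 0.0163). Calls there were 25% of the list, against 17.9% of all genes.

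Of 22 genes known as AP-1 or Egr targets, 8 rose and 2 fell on the siRNA arrays, with a median of 0.53. These are 45.5% of the list, against 12.4% of all genes. Mmp9, a gelatinase gene not well above background on the negative control arrays, was at least 2.32-fold higher (limma adjusted p = 0.0148). The cytokine gene Lif rose by 1.28 (SE 0.28, limma adjusted p = 0.0382). The stromelysin gene Mmp3 fell by 2.61 (SE 0.14, limma adjusted p = 0.000683), and Fgf2 was at least 1.13-fold lower (limma adjusted p = 0.0297). In pcDNA3.1 against negative control 5 rose and 4 fell (40.9%, against 17.9% of all genes). The collagenase gene Mmp13 rose there by 2.69, the haem oxygenase gene Hmox1 by 1.92 and Il6 by 1.14, while Mmp10 fell by 1.32 and Fgf2 was at least 1.33-fold lower. Of 15 tested stress genes that accompany Atf3, Chac1 rose by 0.98 and Ddit3, which encodes CHOP, fell by 0.97 on the siRNA arrays (limma adjusted p = 0.0373 and 0.0257). The cell cycle inhibitor gene Cdkn1a rose by 0.95 on the pcDNA3.1 arrays (limma adjusted p = 0.0205). Atf3 was called in both comparisons, while 13 and 14 of the 15 did not pass. The stress genes called were 13.3% on the siRNA arrays, against 12.4% of all genes, and 6.67% on the pcDNA3.1 arrays, against 17.9%. In pcDNA3.1-MEG3 against negative control, where Atf3 differed most, 4 of the 15 rose and 0 fell (26.7%, against 14.1% of all genes).

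None of the genes in these lists was called in pcDNA3.1-MEG3 against pcDNA3.1 by limma. Without negative control replicate 2, where 9.79% of all genes were called in that comparison, the counts were 2 higher and 1 lower for the upstream genes, 4 and 1 for the other immediate early genes, 4 and 0 for the targets, 3 and 1 for the stress genes, 0 and 1 for the partners and 0 and 0 for the phosphatases. Without negative control replicate 2, the counts in siRNA against negative control were 7 higher and 3 lower for the upstream genes, 14 and 2 for the other immediate early genes, 14 and 3 for the targets, 3 and 0 for the phosphatases, 4 and 2 for the partners and 2 and 5 for the stress genes, where 30.02% of all genes were called. With arrays centred on their median, 5 other immediate early genes rose and 1 fell there, 3 targets rose and 2 fell, and 0 phosphatase genes were called, where 10.9% of all genes were. In pcDNA3.1 against negative control the same centring gave 4 targets higher and 8 lower and 0 phosphatase genes higher and 5 lower, where 21.3% of all genes were called.

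Among the cell type markers, those of myotubes were higher on the siRNA arrays. Of 9 myoblast line markers, between 8 and 9 per group were well above background on all 3 arrays. In siRNA against negative control 3 of them rose and 1 fell (44.4%, against 12.4% of all genes). Against pcDNA3.1 and pcDNA3.1-MEG3 4 rose on the siRNA arrays and 0 fell, where 11.5% and 17.2% of all genes were called. All 9 markers of myotubes rose on the siRNA arrays against the negative control, with a median of 3.99, and Myog rose by 3.46. Of these 9, 3 rose in pcDNA3.1 and 4 in pcDNA3.1-MEG3 against negative control and 0 fell. There 17.9% and 14.1% of all genes were called. The summed level of the myotube markers was 5.65 to 5.83 on the siRNA arrays, 1.16 to 1.18 on the pcDNA3.1-MEG3 arrays, 1.03 to 1.14 on the pcDNA3.1 arrays and 0.24 to 0.59 on the negative control arrays. The part of this shift in the levels of Fos, Egr1, Egr2 and Atf3 was not tested, and in bulk RNA fewer cells of a kind and less RNA per cell cannot be told apart. Summed fibroblast marker levels were 5.15 to 5.23 on the siRNA arrays, 4.40 to 4.48 on the pcDNA3.1-MEG3 arrays, 4.74 to 4.78 on the pcDNA3.1 arrays and 5.13 to 5.27 on the negative control arrays. Of 6 markers 3 were well above background on all siRNA arrays and 4 in each other group, and of the 4 tested 0 were called in siRNA against negative control and 2 fell in each plasmid group against it. For macrophage markers the sums were 0.94 to 0.95 on the siRNA arrays, 1.55 to 1.71 on the pcDNA3.1-MEG3 arrays, 1.51 to 1.66 on the pcDNA3.1 arrays and 0.85 to 0.94 on the negative control arrays, with Fcgr1 not well above background on any siRNA or plasmid array. For endothelial markers they were -0.07 to 0.41, -0.02 to 0.07, 0.25 to 0.46 and -0.15 to -0.06 in the same order of groups, with Tie1 not well above background on any array.

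The genes whose levels ran most like those of the 10 were sought over the 8 samples among 13078 named genes well above background on all 12 arrays. For Fos they were Il2rg, Casq2 and Usp13, with Pearson's r of 0.998, 0.997 and 0.996. Casq2, a calcium store protein of striated muscle, averaged 0.15 on the siRNA arrays, -4.18 on the pcDNA3.1-MEG3 arrays, -4.37 on the pcDNA3.1 arrays and -5.63 on the negative control arrays. For Egr1 they were Zbtb11os1 and Tdrkh (0.997 and 0.996), for Atf3 Chka, Mars2 and Eif2b3 (0.986, 0.985 and 0.983) and for Jun Rhod, Hras and Nfe2l1 (0.993, 0.991 and 0.988). The samples fall into 4 groups of 2 that share slides, so such a coefficient describes mainly the order and spacing of 4 group means.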

How the data were processed

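Spot intensity values, linear and background-subtracted but not normalised between arrays, came from Agilent Feature Extraction 11.0.1.1, per the file headers. Other deposited columns hold flags, positions and names. The authors' deposited table of processed intensity for 30732 probes served as an alternative, with a scaling not given in the sources used here. Each array held 44397 spots, of which 1377 controls and all outlier-flagged spots were left out, and 0 were saturated.

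Spots of a probe were averaged, log2 signals were scaled to the array's 75th percentile, and each gene took its brightest probe among those detected on all 3 arrays of some group. RefSeq gave symbols to 27234 of 39429 probes. Tests used limma 3.58.1 in R 4.3.3 (data.table, version 1.17.8) on 8 samples (4 residual degrees of freedom, 1.9 prior) with two-sided p-values, and were tested on simulated data. Normexp, with offset 50, was run on the median spot signal and background, since no mean signal column was used here. Replicate numbers did not pair samples: deviations of same-numbered arrays correlated at -0.073 to 0.033. The number of arrays limits the precision.

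The genes, lists, tests and alternatives were chosen with earlier results of these data known. Named besides the 10 genes are, per list and comparison, up to 3 called genes in each direction with the largest difference, the 3 genes most correlated with Fos, Jun, Egr1 and Atf3, and Meg3. Some genes that this rule names are not reported here. Myog and Tie1 were named after their values were seen, as were Fcgr1 and the 4 groups' Casq2 means. Alternatives were background correction, scaling, filter, probe rule, counting of samples, scan, replicate block, threshold, samples in the fit and leaving out each sample.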

Additional observations from a re-analysis of the deposited data

How the results depend on the processing

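In siRNA against negative control 4 of the 10 genes were called, where 12.4% of all genes were. The count was 0 with normexp background correction (0% of all genes) and 0 with the arrays of the 2 groups alone (0.644%). With 12 arrays as 12 samples it was 6 (40.1%). In pcDNA3.1-MEG3 against pcDNA3.1 the count was 0 (0.00814% of all genes), against 2 with the 2 groups alone (7.98%) and 2 with 12 arrays as 12 samples (12.2%). In pcDNA3.1 against negative control it was 2 (17.9% of all genes), against 0 with normexp (0%). A count of 1 came with no filter (9.99%), every probe tested (17.1%) and the first scan only (17.5%). The replicate block (12.6%) and an adjusted p under 0.01 (3.71%) also gave 1. The count was 4 with the hybridisation as a random block (20.1%) and 5 with the negative control as 3 samples (26.7%). With 12 arrays as 12 samples it was 6 (49.3%). In each comparison the count also changed when some single samples were left out, as did the share of all genes called. The replicate block changed 1 call of the 10 genes, Fosl1 in pcDNA3.1 against negative control (0.97, limma adjusted p = 0.0598). On pcDNA3.1 replicate 1, pcDNA3.1 replicate 3 and siRNA replicate 2, 7, 9 and 13 spots had a local background above their signal. On siRNA replicate 1 and siRNA replicate 3 it was 1 spot each. With the array's median background used for all such spots, an alternative chosen after seeing the data, normexp gave 4, 0 and 2 called genes. Of all genes, 8.99%, 0.0448% and 12.5% were then called. The count with each group but the negative control as 1 sample, given above, was also chosen after seeing the data. So were the gene list counts without negative control replicate 2 and with another centring. Where a sample was left out of a group of 2, the lone sample was assumed to vary like the others.

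No call of the 10 genes changed sign under these alternatives. Counted once per gene, comparison and alternative, calls were kept 137 times and lost 33 times. Differences that had not been called stayed so 557 times and became called 50 times. The comparisons of siRNA with each plasmid group and of pcDNA3.1-MEG3 with negative control were refitted under 2 alternatives only. All 30 changes of sign, counted in the same way, were of differences that had not been called. The cause was not tested for any of them. With normexp these were Egr1 in pcDNA3.1-MEG3 against pcDNA3.1 (0.020), Egr2 (0.25), Fosl2 (-0.18), Jun (0.49) and Jund (-0.11) in pcDNA3.1 against negative control, Jun (0.58), Junb (1.82) and Jund (-0.33) in siRNA against negative control, and Junb in pcDNA3.1-MEG3 against pcDNA3.1 (-1.35), and with the repaired background Junb in siRNA against negative control (0.17). With median centring they were Fos (-0.020), Fosl2 (-0.068), Junb (-0.055) and Jund (-0.22) in pcDNA3.1 against negative control, Jund in siRNA against negative control (-0.085) and Fos in pcDNA3.1-MEG3 against pcDNA3.1 (0.015), where quantile normalisation gave 0.0054 and the authors' deposited values 0.010. With 12 arrays as 12 samples Fosl2 in pcDNA3.1-MEG3 against negative control was -0.067 and Jund in pcDNA3.1-MEG3 against pcDNA3.1 was -0.000114, as it was with each other group as 1 sample (-0.000114). The mean of both Fosl2 probes gave -0.72 in siRNA against negative control. Over the fits without a replicate 2, Egr2 in pcDNA3.1 against negative control ran from -0.14 to 0.0019, Jun from -0.41 to 0.051 there and from -0.38 to 0.10 in siRNA against negative control, Junb from -0.53 to 0.20 in siRNA against negative control, and Jund from -0.029 to 0.022 in pcDNA3.1-MEG3 against pcDNA3.1. The positive Jun and Junb values came without negative control replicate 2. Without negative control replicates 1 and 3 Egr2 was 0.13 and Junb -0.11 in pcDNA3.1 against negative control, and without siRNA replicates 1 and 3 Fosb was -0.16 in siRNA against negative control.

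Over all genes the counts called ranged from 0 to 9846 in siRNA against negative control (3040 as reported), 0 to 3003 in pcDNA3.1-MEG3 against pcDNA3.1 (2) and 0 to 12099 in pcDNA3.1 against negative control (4397), with 0 under normexp and the highest with 12 arrays as 12 samples. The share of calls that were higher was 41.1% with median centring against 62.5% in siRNA against negative control, and 19.8% with median centring, 47.2% with quantile normalisation and 46.8% in the authors' deposited values against 62.9% in pcDNA3.1 against negative control. Low signal limits Junb and the dimmer Fosl2 probe most.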
